A study of Mus musculus with 8 samples.

Results

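Genes that mark chondrocyte hypertrophy were followed in cartilage from the medial side of the mouse knee, in untreated (naive) mice and 6 weeks after destabilisation of the medial meniscus (DMM). The 6 genes were Col10a1, Runx2, Runx3, Mef2c, Panx3 and Spp1, chosen by name for their known roles. Earlier results of these data were known when they were chosen. All 6 were found among the 50462 gene identifiers of the count table, each with 1 identifier and annotated as protein coding, and all 6 were among the 17760 genes given an adjusted p. Each library came from 1 male wild-type C57Bl/6J mouse. The 4 naive mice were killed at day 0, when they were 11 weeks old. The 4 DMM mice were operated on the left knee at that age, by transection of the ligament that ties the medial meniscus to the tibia, and were killed at day 42, when they were 17 weeks old. DMM is a surgical mouse model of post-traumatic osteoarthritis. No sham-operated mice were analysed here, so the surgery and 6 weeks of ageing cannot be told apart in any value below.

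In hypertrophy, a growth plate chondrocyte stops dividing, enlarges, replaces much of its type II collagen matrix with type X collagen and prepares that matrix to calcify and be replaced by bone. Runx2, Runx3 and Mef2c are transcription factors that drive the switch, Col10a1 encodes type X collagen, Panx3 encodes a channel protein of prehypertrophic and hypertrophic chondrocytes and of osteoblasts, and Spp1 encodes osteopontin, a secreted phosphoprotein of mineralising matrix. Healthy articular chondrocytes mostly stay short of this state, and genes of hypertrophy are often studied in osteoarthritic cartilage for that reason. Of the 6, only Col10a1 is closely tied to the hypertrophic chondrocyte. Runx2, Mef2c, Panx3 and Spp1 are also used by osteoblasts and osteocytes, and Spp1 by macrophages and osteoclasts.

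RUNX proteins bind the core TGTGGT, and Col10a1 and Spp1 are known RUNX2 targets, so the DNA just before the start of these genes is shown beside that of Runx3. RefSeq windows (build GRCm38.p6, 250 bases before to 50 bases after a start) were available for 5 of the 6 genes, with Panx3 the exception. Each run below holds the 250 bases before the start, written 5′ to 3′ on the strand of the gene, and capitals mark the TATA box letters TATAAA in Col10a1 and the RUNX core, here read from the other strand as ACCACA, in Spp1 and Runx3.
Col10a1, chr10:34389731-34389980, + strand: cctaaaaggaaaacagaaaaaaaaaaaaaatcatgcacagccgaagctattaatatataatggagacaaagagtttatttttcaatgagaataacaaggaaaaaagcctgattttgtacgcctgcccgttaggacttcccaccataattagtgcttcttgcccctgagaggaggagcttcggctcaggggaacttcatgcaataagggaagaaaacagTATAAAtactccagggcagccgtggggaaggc
Spp1, chr5:104434861-104435110, + strand: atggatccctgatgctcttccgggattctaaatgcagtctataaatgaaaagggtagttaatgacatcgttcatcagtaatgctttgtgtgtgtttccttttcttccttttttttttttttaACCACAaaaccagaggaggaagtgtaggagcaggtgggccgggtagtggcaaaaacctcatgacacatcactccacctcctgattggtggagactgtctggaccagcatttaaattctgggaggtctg
Runx3, chr4:135120395-135120644, + strand: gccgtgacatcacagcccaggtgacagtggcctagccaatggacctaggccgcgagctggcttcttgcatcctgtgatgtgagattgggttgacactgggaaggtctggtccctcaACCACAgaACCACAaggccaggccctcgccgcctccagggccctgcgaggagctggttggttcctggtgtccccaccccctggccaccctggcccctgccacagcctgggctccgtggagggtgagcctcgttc
The RUNX core was searched on both strands. It occurred at -128 in the first of 2 Spp1 windows and at -134 and -126 in the first of 2 Runx3 windows, counted from the start to the first base of the match. The single Runx2 window held it at -80 and, after the start, at 24 and 32. The RefSeq start of that window lies inside the annotated Runx2 gene (chr17:44495987-44814797, - strand), and so does the match at -80. These letters were not in the windows of Col10a1 or Mef2c. TATAAA occurred at -32 in Col10a1 and, unmarked above, at -211 in Spp1, and on the other strand at -107 and -22 in the first and second of 3 Mef2c windows. Of 32817 RefSeq windows of the same length in the mouse, 16.8% held the RUNX core, 13.6% held TATAAA and 3.19% held the MEF2 motif, which was in none of the 9 windows of these genes. A match is a string of letters and not a measured binding site.

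The libraries held 12479443 to 16548002 estimated counts, and 16770 to 19271 genes reached 10 counts, with naive 2 the lowest. Although the labels give the tissue as cartilage and the cell type as chondrocyte, the libraries also held RNA of bone and marrow. Col1a1, the main collagen of bone, had more normalised counts per kilobase than Col2a1, the main collagen of cartilage, in the naive mice (23197 ± 7143 against 4812 ± 1966, SD, n = 4) and in the DMM mice (54559 ± 8466 against 12808 ± 5432). The summed share of counts from 14 chondrocyte markers was 0.344% to 0.511% in naive libraries and 0.809% to 1.44% in DMM libraries, and that of 13 osteoblast and osteocyte markers was 1.39% to 2.02% and 3.88% to 4.85%. Neutrophil markers moved the other way, from 0.897% to 1.25% in naive libraries to 0.422% to 0.892% in DMM libraries. The groups did not overlap in any of these 3 shares, but with 12 marker lists no share passed the exact two-sided permutation test after adjustment (smallest adjusted p = 0.0857, from 0.0286, the smallest that 70 assignments allow). In these bulk samples, a change in the number of cells of a type and a change in RNA per cell cannot be told apart.

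Of the 6 genes, 3 rose in the DMM mice past both thresholds, a DESeq2 adjusted p of 0.05 and a 1.5-fold change, and these were the products Col10a1, Panx3 and Spp1. The transcription factors Runx2 and Mef2c were also higher and passed the adjusted p, but their changes stayed under 1.5-fold. Runx3 did not pass. Over all 17760 genes tested, 7.75% were called higher and 5.92% lower by both thresholds, and by the adjusted p alone 11.4% were higher and 11.2% lower (22.6% in all). By edgeR, with the same thresholds, 6.89% were higher and 4.4% lower (11.3% in all), and the same 3 of the 6 were called. The normalised counts of the 4 naive and the 4 DMM mice did not overlap for 5 of the 6 genes, all higher after DMM, against 11.9% of all genes tested (22.2% in either direction). The median log2 fold change of the 6 was 0.66, against -0.02 over all genes tested.

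**Figure D1:**
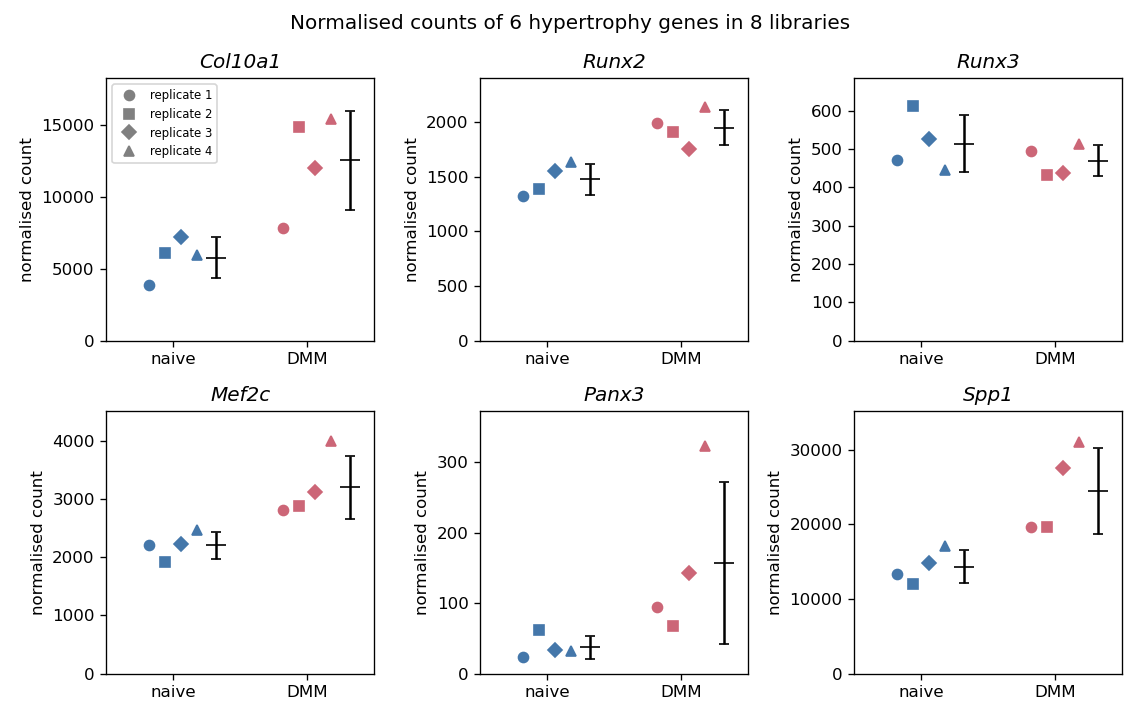
Normalised counts (estimated counts divided by the size factor of the library, linear axes from 0) of the 6 genes in 4 naive and 4 DMM libraries. Each symbol is 1 mouse, and the bars beside the symbols give the mean ± SD of the group. Only in the Runx3 panel do the groups overlap, and Panx3 in DMM 4 (323) stands highest in its panel. Replicate numbers name the mice and do not pair them.

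Col10a1, type X collagen, rose 2.17-fold. It lies at chr10:34389981-34397085 (GRCm38, + strand, ENSMUSG00000039462). Its normalised counts were 3851, 6093, 7240 and 5930 in naive mice 1 to 4 and 7872, 14859, 12022 and 15416 in DMM mice 1 to 4. The lowest DMM mouse, DMM 1, was just above the highest naive mouse, and the other DMM mice were well above it. The log2 fold change was 1.12 ± 0.22 (SE, n = 4 and 4, DESeq2 adjusted p = 2.14e-05), with a 95% interval of 1.60-fold to 2.94-fold. The groups spread alike around their means, with coefficients of variation of 24.4% and 27.5%.

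The exons of Col10a1 overlap those of Nt5dc1, a gene of the opposite strand, and strand use in the counting is not given in the sources used here. Where in Col10a1 the overlap lies is not given here. Nt5dc1 had far fewer normalised counts, 219 ± 16.0 in naive and 196 ± 24.7 in DMM mice (SD, n = 4), and did not pass the test (log2 fold change -0.16, DESeq2 adjusted p = 0.486). None of the 31-base words of Col10a1 transcripts occurred in transcripts of another gene, read on either strand. Relative to type II collagen no difference in Col10a1 was detected, since the log2 ratio of Col10a1 to Col2a1 counts was -2.0 ± 0.43 in naive and -2.30 ± 0.58 in DMM mice (SD, n = 4), a difference of -0.30 with an exact two-sided permutation p of 0.429. The ratio in DMM 2 was -1.44 and those in the other 3 DMM mice lay between -2.67 and -2.48. Without DMM 2 the difference was -0.58 (exact permutation p = 0.0857).

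Spp1, osteopontin, had the most counts of the 6 and rose 1.71-fold. It lies at chr5:104435118-104441050 (GRCm38, + strand, ENSMUSG00000029304), just after the promoter window printed above. Its normalised counts were 13405, 11973, 14773 and 17111 in naive mice 1 to 4 and 19640, 19592, 27568 and 31003 in DMM mice 1 to 4. DMM 1 and 2 were close to each other and DMM 3 and 4 were higher, and all of them were above every naive mouse. The log2 fold change was 0.77 ± 0.18 (SE, n = 4 and 4, DESeq2 adjusted p = 0.000205), with a 95% interval of 1.35-fold to 2.17-fold. Of the 31-base words in Spp1 transcripts, 14.3% also occur in Gm42793, an annotated gene model on the same strand that the table analysed here does not list.

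Panx3, the channel protein, had the fewest counts of the 6 and the highest fold change, 4.25-fold. It lies at chr9:37659902-37669235 (GRCm38, - strand, ENSMUSG00000011118), overlaps no annotated gene and shares no 31-base word with another. Its normalised counts were 22.9, 61.2, 33.2 and 31.7 in naive mice 1 to 4 and 94.5, 67.7, 143 and 323 in DMM mice 1 to 4. The groups did not overlap, but naive 2 (61.2) and DMM 2 (67.7) were close, and DMM 4 was more than any other mouse. The coefficient of variation was 73.2% in the DMM mice. The log2 fold change was 2.09 ± 0.44 (SE, n = 4 and 4, DESeq2 adjusted p = 6.9e-05), with a 95% interval of 2.33-fold to 7.78-fold. Without DMM 4 the log2 fold change was 1.47 and Panx3 was still called (DESeq2 adjusted p = 0.00105).

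Runx2, the factor that directs both osteoblast formation and chondrocyte hypertrophy, was 1.32-fold higher, under the fold threshold. It lies at chr17:44495987-44814797 (GRCm38, - strand, ENSMUSG00000039153). Its normalised counts were 1326, 1389, 1555 and 1632 in naive mice 1 to 4 and 1994, 1907, 1758 and 2142 in DMM mice 1 to 4. The change was small but the mice of a group were alike, with coefficients of variation of 9.63% and 8.25%, and the groups did not overlap. The log2 fold change was 0.40 ± 0.11 (SE, n = 4 and 4, DESeq2 adjusted p = 0.00273), with a 95% interval of 1.14-fold to 1.54-fold. Runx2os1, an RNA of the opposite strand that overlaps Runx2 exons, had 29.2 ± 14.9 normalised counts in naive and 22.9 ± 13.1 in DMM mice (SD, n = 4). Of the 31-base words of Runx2 transcripts, 6.39% were shared with transcripts of Runx2os1 and other genes.

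Mef2c, a MADS box factor that acts upstream of Runx2 and Col10a1 in chondrocytes, was 1.45-fold higher, just under the fold threshold. It lies at chr13:83504034-83667080 (GRCm38, + strand, ENSMUSG00000005583). Its normalised counts were 2206, 1917, 2236 and 2472 in naive mice 1 to 4 and 2809, 2889, 3127 and 4001 in DMM mice 1 to 4. DMM 4 was the highest, and the lowest DMM mouse was above the highest naive mouse. On the log2 scale the change was 0.54 ± 0.14 (SE, n = 4 and 4, DESeq2 adjusted p = 0.00137), with a 95% interval of 1.20-fold to 1.75-fold. Mef2c passed the fold threshold without naive 4 (log2 fold change 0.60), without DMM 1 (0.60) and without DMM 2 (0.59).

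Runx3, which overlaps with Runx2 in driving chondrocyte maturation and also acts in lymphocytes, did not pass the test. It lies at chr4:135120652-135177990 (GRCm38, + strand, ENSMUSG00000070691), and its first promoter window holds the paired RUNX core letters printed above. Its normalised counts were 471, 613, 527 and 444 in naive mice 1 to 4 and 494, 432, 438 and 514 in DMM mice 1 to 4. The groups overlapped, with naive 2 the highest of all. The log2 fold change was -0.13 ± 0.14 (SE, n = 4 and 4, DESeq2 adjusted p = 0.569), with a 95% interval from -0.40 to 0.14, and it was 0.03 when libraries were scaled to their total counts. The interval leaves out the 1.5-fold changes in either direction that the call required.

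The balance of the 2 RUNX genes was compared within each library, where the scaling of libraries cancels. The log2 ratio of Runx2 to Runx3 counts was 1.49, 1.18, 1.56 and 1.87 in naive mice 1 to 4 and 2.01, 2.14, 2.0 and 2.06 in DMM mice 1 to 4, so every DMM mouse was above every naive mouse. The means differed by 0.53 (exact two-sided permutation p = 0.0286, the smallest that 70 assignments allow), but after adjustment over the 3 ratios tested the p was 0.0857. The p rose to 0.0571 when any 1 DMM mouse was left out, while the difference stayed between 0.50 and 0.54. With 7 libraries only 35 assignments are possible, and the smallest p they allow is 0.0286. For Spp1 and Ibsp, which encodes bone sialoprotein, the log2 ratio was 0.68 ± 0.09 in naive and 0.15 ± 0.46 in DMM mice (SD, n = 4, exact permutation p = 0.0571, adjusted p = 0.0857). It was 0.63 in DMM 2 and -0.36 in DMM 4, a spread wider than in the naive mice. Without DMM 2 the difference moved from -0.53 to -0.70 and its exact permutation p to 0.0286, the smallest that 7 libraries allow.

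Levels were compared between the 6 genes per kilobase of the median coding transcript. In naive mice the normalised counts per kilobase were 10153 ± 1551 for Spp1, 2083 ± 214 for Mef2c, 1846 ± 451 for Col10a1, 824 ± 79.3 for Runx2, 179 ± 26.0 for Runx3 and 14.7 ± 6.56 for Panx3 (SD, n = 4). The ranges of Mef2c and Col10a1 overlapped and those of all other neighbours in this order did not. In DMM mice Col10a1 (4007 ± 1102) had the higher mean of that pair, ahead of Mef2c (3025 ± 516), with overlapping ranges again. Spp1 stood at 17341 ± 4082, Runx2 at 1089 ± 89.8, Runx3 at 164 ± 14.1 and Panx3 at 62.1 ± 45.4. Runx3 and Panx3 did not overlap in either group. The places of Mef2c and Runx2 depend on the length used. By the length of all exons together Mef2c stood at 140 and Runx2 at 167 per kilobase in naive mice.

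The relatives of these genes did not all move alike. The other short-chain collagens, Col8a1 and Col8a2, encode type VIII collagen and were both called higher. Col8a1 rose from 323 ± 54.8 to 763 ± 15.7 normalised counts (log2 fold change 1.24, DESeq2 adjusted p = 2.2e-16). Col8a2 stood at 255 ± 90.2 and 487 ± 113 (0.94, DESeq2 adjusted p = 0.00209). Spp1 belongs with Ibsp, Dmp1, Mepe and Dspp to a family of acidic integrin-binding phosphoproteins of bone and tooth. Ibsp rose from 8953 ± 1619 to 24145 ± 12838 (log2 fold change 1.43, DESeq2 adjusted p = 0.00386), with 14803, 12617, 29264 and 39895 normalised counts in DMM mice 1 to 4. Dmp1, a product of osteocytes, rose from 3035 ± 484 to 6542 ± 967 (1.11, DESeq2 adjusted p = 2.53e-11). Mepe stood at 1.06, which did not pass (DESeq2 adjusted p = 0.0981), with overlapping groups, but passed without naive 4 (1.46, DESeq2 adjusted p = 0.00765). Dspp, the tooth dentin member, had counts near 0, at most 2.14 normalised counts in naive and 2.47 in DMM mice, and was given no adjusted p.

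**Figure D2:**
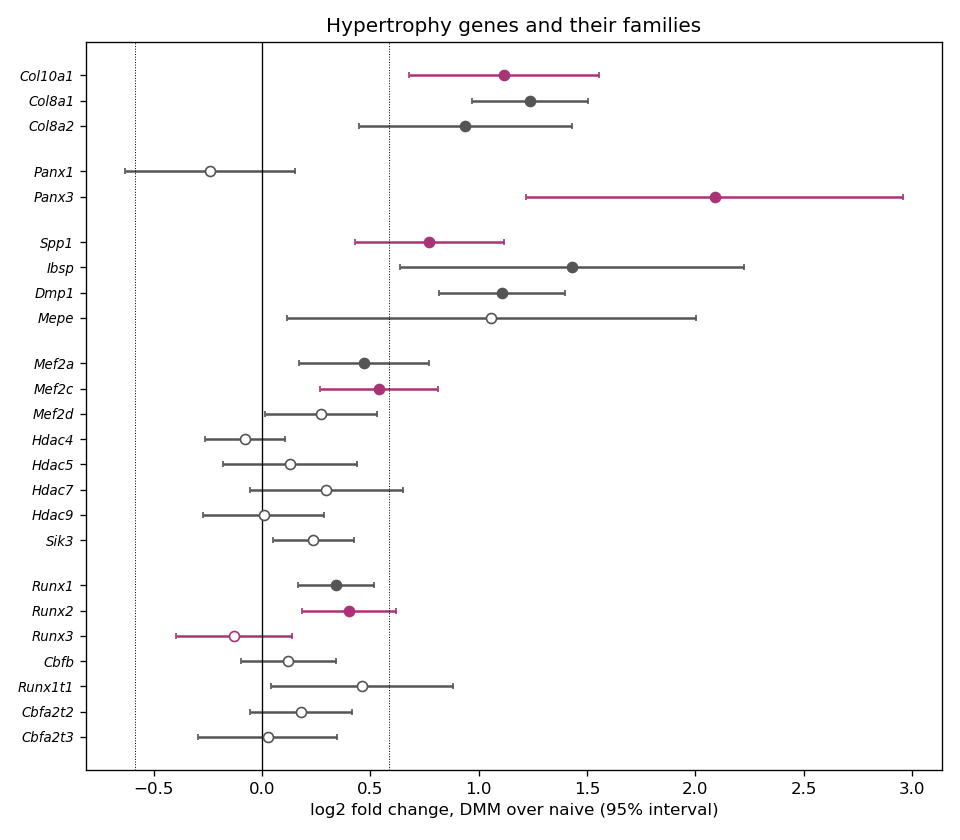
Log2 fold change, DMM over naive, with its 95% interval, for the 6 hypertrophy genes (purple) and the other genes of their families (grey) that were given an adjusted p. Filled symbols passed a DESeq2 adjusted p of 0.05, and dotted lines mark 1.5-fold. The collagens, Panx3, Spp1, Ibsp, Dmp1 and Mepe lie past the upper line, Mepe with an open symbol, whereas both transcription factor families lie between the lines.

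Among the RUNX genes and their partners, 0 of the 5 others were called by DESeq2 or by edgeR. Over all genes tested, DESeq2 called 13.7% and edgeR 11.3%, so 0 of 5 is near these shares. An unadjusted DESeq2 p under 0.05 was found for 2 of the 5, against 33% of all genes tested. Runx1 was higher in every DMM mouse than in any naive mouse, with 2008 ± 124 against 2544 ± 149 normalised counts (log2 fold change 0.34, DESeq2 adjusted p = 0.00183). Cbfb, the shared partner subunit of RUNX proteins, moved little (log2 fold change 0.12, DESeq2 adjusted p = 0.494). The corepressor genes Runx1t1 (0.46), Cbfa2t2 (0.18) and Cbfa2t3 (0.03) did not pass. Runx1t1 did without naive 4 (0.59) and when libraries were scaled to their totals (0.61).

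In the MEF2 group, 0 of the 8 others were called by DESeq2 or by edgeR, near the same shares of 13.7% and 11.3%. An unadjusted DESeq2 p under 0.05 was found for 3 of the 8, against the same 33%. Mef2a passed the adjusted p, with 2503 ± 426 against 3473 ± 506 normalised counts (log2 fold change 0.47, DESeq2 adjusted p = 0.0137). It did not pass without naive 2 (0.37, DESeq2 adjusted p = 0.0501) or without DMM 4 (0.38, DESeq2 adjusted p = 0.0667), and it was called when libraries were scaled to their totals (0.61). Mef2d did not pass (0.27, DESeq2 adjusted p = 0.125). Mef2b had counts near 0, at most 1.33 normalised counts in naive and 4.15 in DMM mice, and was given no adjusted p. The class IIa histone deacetylases bind MEF2 proteins and hold back hypertrophy. Their genes had log2 fold changes of -0.08 (Hdac4), 0.13 (Hdac5), 0.30 (Hdac7) and 0.01 (Hdac9), and none passed. Sik3, a kinase that keeps these deacetylases out of the nucleus, narrowly missed (log2 fold change 0.24, DESeq2 adjusted p = 0.0565), although its groups did not overlap. Of the other pannexins, Panx1 stood at 112 ± 20.2 normalised counts in the naive and 94.8 ± 12.1 in the DMM group (-0.24, DESeq2 adjusted p = 0.436). Panx2 had few counts, at most 5.67 normalised counts in naive and 6.45 in DMM mice, and was given no adjusted p.

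Other genes listed as promoters of hypertrophy were set beside the 6. Of 18, 7 were called higher and 0 lower, against 7.75% and 5.92% of all genes tested. The median log2 fold change of the 18 was 0.41, against -0.02 over all genes tested. Pth1r, the receptor that receives the parathyroid hormone-related signal, rose from 811 ± 78.8 to 1848 ± 197 normalised counts (log2 fold change 1.19, DESeq2 adjusted p = 1.25e-19). That signal holds hypertrophy back, and the gene of its ligand is on the list of inhibitors below. Pth1r is counted among the 7 but is not read here as a driver. Sp7, an osteoblast factor that acts with Runx2, rose by 1.01 (DESeq2 adjusted p = 6.1e-10) and Bmp2, a growth factor, by 1.21 (DESeq2 adjusted p = 8.51e-06). Ihh, the hedgehog ligand of prehypertrophic chondrocytes, rose by 1.36 (DESeq2 adjusted p = 3.27e-05), with 31.7, 46.6, 57.8 and 52.2 normalised counts in naive mice 1 to 4 and 102, 101, 101 and 178 in DMM mice 1 to 4.

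Of 21 other products of hypertrophic chondrocytes, 12 were called higher and 0 lower, against 7.75% and 5.92% of all genes tested. The median log2 fold change of the 21 was 0.63. Ptgs2, the inducible prostaglandin synthase, rose from 24.9 ± 4.71 to 150 ± 58.6 normalised counts (2.60, DESeq2 adjusted p = 7.1e-13). Alpl, the phosphatase needed for mineral deposition, rose from 2168 ± 297 to 5451 ± 1359 (1.33, DESeq2 adjusted p = 1.98e-11). Ank, which moves pyrophosphate out of cells, rose by 0.93 (DESeq2 adjusted p = 5.75e-11). Dmp1, given above, is also on this list. Alpl, Dmp1, Ibsp, Bglap and Bglap2 of this list, and Sp7 above, are osteoblast or osteocyte markers as well.

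Of 17 genes known to hold back hypertrophy, 9 were called higher and 1 lower, against 7.75% and 5.92% of all genes tested. The median log2 fold change of the 17 was 0.79. By the adjusted p alone 10 were higher and 2 lower, against 11.4% and 11.2% of all genes tested. Sox9, the master factor of chondrocytes, rose from 839 ± 53.1 to 1764 ± 459 normalised counts (1.07, DESeq2 adjusted p = 5.36e-07). Ptch1, a hedgehog receptor and target, rose by 0.73 (DESeq2 adjusted p = 1.04e-09). Mgp, an inhibitor of calcification, rose by 1.13 (DESeq2 adjusted p = 3.59e-07). Grem1, a BMP antagonist, fell from 708 ± 209 to 220 ± 77.2 (-1.69, DESeq2 adjusted p = 4.63e-08), with 834, 498, 934 and 567 normalised counts in naive mice 1 to 4 and 192, 277, 123 and 286 in DMM mice 1 to 4. Sox6, a partner of Sox9, was also lower by the adjusted p, from 1815 ± 266 to 1219 ± 263 (-0.57, DESeq2 adjusted p = 0.00557), under the fold threshold. The lists of promoters, products and inhibitors thus all held several genes that rose, and the promoter list includes Pth1r. No test of one list against another was made.

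Of 9 genes for osteopontin receptors, 0 were called by DESeq2 and 1 by edgeR, against 13.7% and 11.3% of all genes tested. An unadjusted DESeq2 p under 0.05 was found for 7 (33% of all genes tested). By the adjusted p alone 5 were higher and 2 lower, against 11.4% and 11.2% of all genes tested. The integrin subunit genes Itgav (0.58, DESeq2 adjusted p = 0.00013), Itgb5 (0.56, DESeq2 adjusted p = 0.00213) and Itga9 (0.36, DESeq2 adjusted p = 0.00279) were higher. Itgb3, a subunit abundant in osteoclasts and platelets, was lower, with 4981, 5639, 4031 and 4069 normalised counts in naive mice 1 to 4 and 3128, 3136, 3155 and 3340 in DMM mice 1 to 4 (-0.55, DESeq2 adjusted p = 0.000224). The calls here turned on single libraries, with 0 to 4 of the 9 called when 1 mouse was left out and 4 without naive 4.

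**Figure D3:**
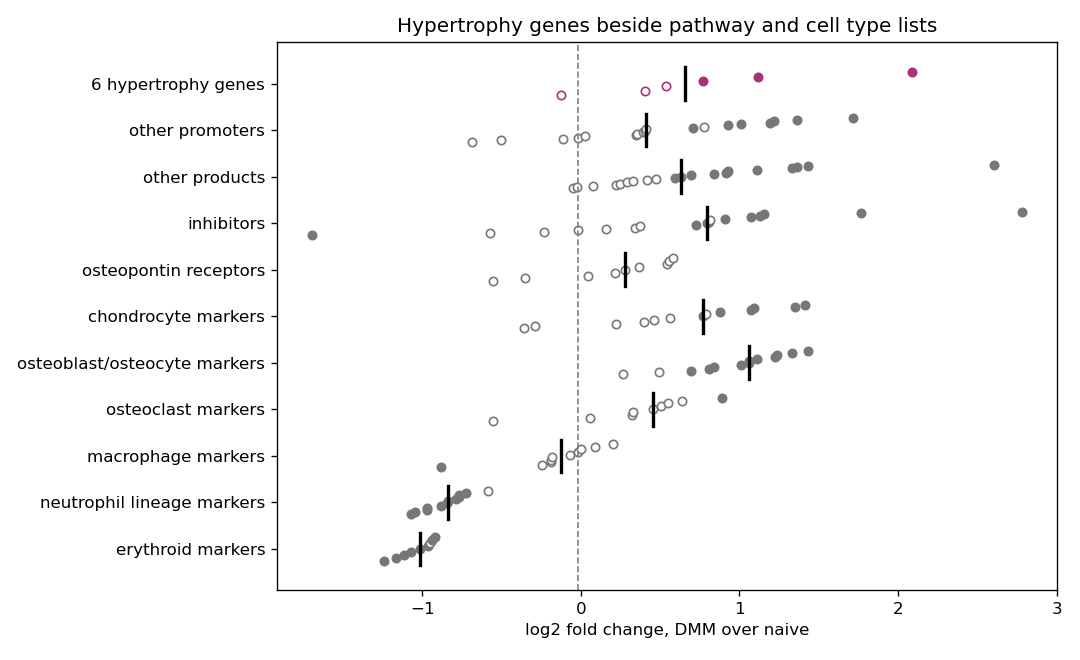
Log2 fold change, DMM over naive, of each gene with an adjusted p in the 6 hypertrophy genes, 4 related lists and 6 marker lists. Each circle is 1 gene, filled where called by adjusted p and fold, thick bars are list medians and the dashed line is the median of all genes tested (-0.02). The medians of the 6 genes (0.66), of chondrocyte markers (0.77) and of osteoblast and osteocyte markers (1.06) lie to the right of that line, and those of neutrophil (-0.84) and erythroid markers (-1.01) to the left.

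Markers of chondrocytes and of bone cells, which can hold these genes, were counted beside the 6. Over all genes tested, 7.75% were called higher and 5.92% lower. Of 14 chondrocyte markers 6 were called higher and 0 lower, with a median log2 fold change of 0.77, and Col9a1 (-0.36) and Matn3 (-0.29) were among those that did not pass. The most abundant, Col2a1, rose from 23979 ± 9798 to 63821 ± 27070 normalised counts (log2 fold change 1.41, DESeq2 adjusted p = 0.00703), and Comp by 1.35 (DESeq2 adjusted p = 6.4e-09). Matn1 was near 0 in the DMM mice (0 to 1.66 normalised counts). Of 13 osteoblast and osteocyte markers 10 were called higher and 0 lower, with a median of 1.06, and Col1a1 and Col1a2 rose by 1.23 (DESeq2 adjusted p = 4.53e-08) and 1.22 (DESeq2 adjusted p = 6.62e-09).

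Markers of other cell types that can express Spp1 or Runx3 were counted in the same way. The shares over all genes tested were again 7.75% higher and 5.92% lower, so 1 call in a list of 10 is near these shares. Of 10 osteoclast markers 1 was called higher and 0 lower, with summed shares of 0.112% to 0.154% in naive and 0.131% to 0.202% in DMM libraries, and Mmp9 (0.06) and Acp5 (0.51) did not pass. The median log2 fold change of the osteoclast list was 0.46, against -0.02 over all genes tested. By the adjusted p alone 2 were higher and 1 lower, and 6 had an unadjusted DESeq2 p under 0.05, against 33% of all genes tested. Acp5 was called without naive 4 (0.66), without DMM 2 (0.64) and with total count scaling (0.66). Of 10 macrophage markers 0 were called higher and 1 lower, with shares of 0.0530% to 0.0570% and 0.0522% to 0.0632%, and Csf1r (0.20) and Mrc1 (-0.19) did not pass. Of 11 T and NK cell markers 0 were called higher and 2 lower. The lowest medians were those of erythroid (-1.01), megakaryocyte (-1.01) and neutrophil lineage markers (-0.84). All 11 neutrophil lineage calls among 12 markers, all 8 erythroid calls among 10 and all 7 megakaryocyte calls among 8 were lower, and edgeR called 7, 8 and 7 of these lists. The neutrophil genes S100a9 and Ngp fell by 0.84 and 0.88 on the log2 scale, the platelet genes Itga2b and Ppbp fell by 1.03 and 1.15, and of the globin genes Hba-a2 was called (-1.11, not without naive 1 or 2 or DMM 1, 2 or 4) and Hbb-bs was not (-0.95), except without DMM 3 (-1.35). B lineage markers gave 0 calls of 10 by DESeq2 or edgeR, against 13.7% and 11.3% of all genes tested. In that list 2 had an unadjusted DESeq2 p under 0.05 (33% of all genes tested). Endothelial markers gave 3 higher and 1 lower of 9 and synovial fibroblast markers 2 higher of 8. Of 10 muscle markers only 5 were given an adjusted p, and 2 were called higher. Vwf was called lower (-0.72), but not without naive 2 (-0.53) or with total count scaling (-0.55). Cd3d was called lower (-0.88), but not by edgeR (adjusted p = 0.0571) or without naive 3 (DESeq2 adjusted p = 0.0502). Ebf1 passed the adjusted p alone (0.43), but not without naive 2 (0.40), naive 3 (0.41), DMM 1 (0.32) or DMM 2 (0.37), and Cd4 (-0.16), Pax5 (0.27), Pecam1 (-0.03), Prg4 (-0.54) and Cd55 (0.24) did not pass. The muscle genes Ttn and Myh4 were given no adjusted p.

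Because 6 of 14 chondrocyte markers and 10 of 13 bone markers were called higher, the 6 genes were also tested relative to these lists, with size factors computed from each marker list alone, alternatives chosen after seeing the data. Under these scalings the median of all genes tested moved to -0.71 with chondrocyte markers and -1.03 with osteoblast and osteocyte markers, so values are read against the markers and not against all genes. Panx3 remained higher, by 1.35 relative to chondrocyte markers (DESeq2 adjusted p = 0.00622) and by 1.05 relative to bone markers (DESeq2 adjusted p = 0.0135). Col10a1 no longer passed, at 0.45 (DESeq2 adjusted p = 0.18) and 0.12 (DESeq2 adjusted p = 0.595). Spp1 was level with the chondrocyte markers, at 0.01 (DESeq2 adjusted p = 0.99), and stood at -0.25 against bone markers (DESeq2 adjusted p = 0.24).

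Runx2 and Mef2c changed sign under these scalings and Runx3 did not. Runx2 stood at -0.28 relative to chondrocyte markers (DESeq2 adjusted p = 0.469) and was lower relative to bone markers (-0.61, DESeq2 adjusted p = 7.14e-05). Mef2c stood at -0.21 (DESeq2 adjusted p = 0.585) and was lower relative to bone markers (-0.49, DESeq2 adjusted p = 0.00655). Runx3 was lower relative to both, at -0.79 (DESeq2 adjusted p = 0.0356) and -1.14 (DESeq2 adjusted p = 7.51e-10). These scalings change only the reference genes. Whether the share of chondrocyte and bone RNA in a library has a part in the values of the 6 genes was not tested.

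**Figure D4:**
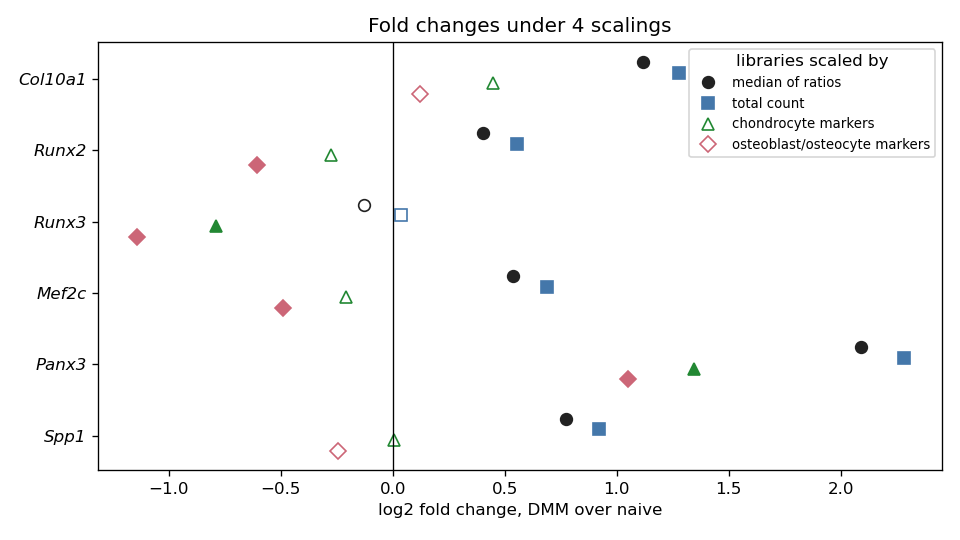
Log2 fold change, DMM over naive, of the 6 genes with libraries scaled by the median of ratios over all genes, by total count, by chondrocyte markers or by osteoblast and osteocyte markers. Filled symbols passed a DESeq2 adjusted p of 0.05. Panx3 and Col10a1 lie above 0 under every scaling, Panx3 always with a filled symbol and Col10a1 with open symbols under both marker scalings. Runx2 and Mef2c move to below 0 with both marker lists, and Spp1 with the bone markers.

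The genes most like each of the 6 were found over the 8 libraries by Pearson's r of log2 normalised counts after subtraction of the group means, so that the difference between groups does not enter, among 11039 genes with a mean of 100 or more. These values describe the spread of the same 8 mice, which share depth and tissue composition within a library, and carry no p. With 11039 genes to choose from and only 8 libraries, the highest r was 0.98 or 0.99 for each of the 6. A high rank is by itself no sign of a shared role. Col10a1 varied most like Acan, the main cartilage proteoglycan (r = 0.99), Panx3 most like Prkg2, a cGMP-dependent kinase of the growth plate (r = 0.99), and Runx2 most like Tnfrsf11a, the receptor RANK of osteoclasts (r = 0.99). Runx3 was followed by Cntrob (r = 0.98), Mef2c by Ivns1abp (r = 0.98) and Spp1 by Ctbs (r = 0.98) and Cst3 (r = 0.98). Next in order came Gm13212 and Tst for Col10a1, Cryzl2 and Naip2 for Panx3, Vmn1r207-ps and Macc1 for Runx2, Kmt5c and Adssl1 for Runx3, Klhl32 and Ccnt2 for Mef2c, and Slitrk6 for Spp1.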

How the data were processed

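RNA from medial knee cartilage caps of 4 naive and 4 DMM mice was sequenced. The deposited values are estimated counts per gene, which the authors made with Trimmomatic, Kallisto and tximport against a mouse GRCm38 transcriptome. The build is uncertain, since the labels list a human build. The labels and the methods name different library kits, and use of strand is not given in the sources used here. Of the values, 39.2% were not whole. All were rounded for DESeq2 and edgeR, while the ratios and marker shares used the counts as deposited. Symbols and coordinates came from GENCODE vM21, which gave a symbol to 48855 of 50462 identifiers holding 86.6% of counts.

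DMM was compared with naive in DESeq2 1.42.0 (R 4.3.3) by Wald tests, with size factors from medians of ratios and unshrunken fold changes, as in the test named by the study. A call needed a Benjamini-Hochberg adjusted p of 0.05 over all genes and 1.5-fold. Alternatives were edgeR 4.0.16 (quasi-likelihood), TMM or total count scaling, filters, no fold threshold, a replicate block and leaving out each mouse. In simulated data, DESeq2 called 171 of 200 genes changed 2-fold and 17 unchanged ones of 17661 genes tested. The changed genes were drawn from well counted genes, as many up as down. These rates therefore do not cover genes with few counts or an uneven split of changes. Single values had exact permutation tests. Ahsp of the erythroid list had no identifier.

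The genes and lists were chosen with earlier results of these data known. The text names the 6 genes, every family gene, the 4 smallest adjusted p in each other list, the 2 most abundant markers in each marker list and the 3 genes most like each member. Matn1, Matn3, Col9a1, Sox6, Bglap and Bglap2 fall outside this rule and were named after their values were seen.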

Additional observations from a re-analysis of the deposited data

Results flagged for a closer look

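Among 162 groups of 4 values tested for a library that stands apart from the other 3 (Dixon's test), 15 were flagged, and chance alone flags about 8.1. Only the ratio of Col10a1 to Col2a1 concerns the 6 hypertrophy genes. It was -1.44 in DMM 2, against -2.67 to -2.48 in the other DMM mice.

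Among relatives of these genes, naive 2 stood low in Col8a1 (241 normalised counts against 347 to 355) and high in Cbfb (1205 against 993 to 1002). Naive 4 stood high in Runx1 (2192 against 1930 to 1962) and in Itgav (2136 against 1565 to 1659), and naive 3 in Sox9 (918 against 805 to 817). DMM 4 stood high in Ihh (178 against 101 to 102) and Itgb3 (3340 against 3128 to 3155).

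Among markers of other cells, DMM 3 stood high in Hba-a2 (59693 against 26769 to 32043), in Hbb-bs (47706 against 20014 to 21622) and in the erythroid share of counts (1.26% against 0.599% to 0.653%). DMM 1 stood high in Ttn (2252 against 166 to 328), Myh4 (540 against 4.51 to 57.0) and the muscle share of counts (0.0275% against 0.00252% to 0.00427%). DMM 4 stood low in Vwf (1204 against 1623 to 1685).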

How the results depend on the processing

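The calls of Col10a1, Panx3 and Spp1 held with edgeR, TMM or total count scaling, either filter setting, the replicate block and in all 8 fits without 1 mouse. Without 1 mouse their log2 fold changes ranged from 0.97 to 1.29, 1.47 to 2.43 and 0.64 to 0.87. Those of Runx2 ranged from 0.36 to 0.45, of Runx3 from -0.19 to -0.03 and of Mef2c from 0.42 to 0.60, called in 3 of 8. Scaling to total counts moved the median of all genes to 0.14. It put Runx3 at 0.035 and Mef2c past the fold threshold (0.69), and it changed the split of all calls from 1377 higher and 1052 lower to 2030 and 489. Without the fold threshold Runx2 (0.40) and Mef2c (0.54) joined the calls, which made 5 of 6. Over all genes tested calls rose from 13.7% to 22.6% (4010, 1989 of them lower). In the related lists calls rose from 30 to 46 of the 80 genes, other than the 6, that had an adjusted p. The marker scalings, chosen after seeing the data, gave with chondrocyte markers 0.45 for Col10a1, -0.28 for Runx2, -0.79 for Runx3, -0.21 for Mef2c and 0.0051 for Spp1. With bone markers they gave 0.12, -0.61, -1.14, -0.49 and -0.25. The cause of these changes beyond the choice of reference genes was not tested.

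Among 3 ratios, leaving out 1 mouse gave differences of -0.58 to -0.16 for Col10a1 to Col2a1, -0.70 to -0.36 for Spp1 to Ibsp (past 0.05 in 1 of 8) and 0.41 to 0.64 for Runx2 to Runx3 (past 0.05 in 4 of 8). Of named genes near 0, scaling to totals gave 0.08 for Hdac4, 0.011 for Cd4 and 0.12 for Pecam1, TMM gave 0.0026 for Pecam1, and leaving out 1 mouse gave ranges of -0.080 to 0.13 for Cbfa2t3, -0.096 to 0.087 for Hdac9, -0.039 to 0.20 for Mmp9, -0.031 to 0.46 for Pax5 and -0.11 to 0.062 for Pecam1.

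Replicate numbers gave no pairing. Deviations of same-numbered mice correlated at 0.046, 0.076, -0.16 and 0.096. With a replicate block 2081 genes were called against 2429, the same 3 hypertrophy genes among them. The block added calls of Mepe (1.17) and Itgav (0.59), lost that of Hba-a2 (-1.14) and put Hdac9 at -0.0029.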
